A study of Rattus norvegicus with 15 samples.

Results

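The 10 genes described here mark microglia, the resident immune cells of the brain, or encode proteins of the complement system. They are Aif1, Csf1r, Cx3cr1, P2ry12, Tyrobp, Trem2, C1qa, C1qb, C1qc and C3. They were chosen by gene symbol, and each matched 1 of the 18278 RefSeq transcript records counted in every library. RNA was sequenced from brains of rats with implanted devices. In VNS rats the vagus nerve was stimulated daily for 30 min over 4 days, whereas the device of control rats was a sham. The hippocampal data are 4 VNS and 3 control libraries of ribosome-depleted total RNA, and these rats had also done a novelty preference task for 10 min a day from day 2 to day 4. The cortical data are 4 VNS and 4 control libraries of polyA-selected RNA. All rats were decapitated right after the last stimulation, and both VNS and control rats carried an implanted device. The labels give no strain, sex or age and no link between libraries and litters, so p-values measure the spread between these libraries.

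Microglia depend on signalling through the CSF1 receptor for survival. They survey neurons through surface receptors for fractalkine and for ADP, and they sense lipids and debris through TREM2, which signals through the adaptor protein TYROBP. In the brain, microglia are the main source of C1q, the complex that starts the classical complement pathway and that tags synapses for removal during development. Cleavage of C3, the protein on which all complement pathways converge, yields the fragment that is deposited on the target and read by receptors on microglia. Astrocytes, vascular cells and macrophages at the borders of the brain can also make C3.

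The 3 C1q genes lie side by side on the minus strand of chromosome 5 in rn5, the build of the count files. C1qb spans 159008943 to 159014492, C1qc 159017524 to 159020850 and C1qa 159023753 to 159026600, with gaps of 3031 and 2902 bases between the records. Promoter sequences from RefSeq (build GRCr8, 250 bases before to 50 after the annotated start) were matched for 6 of the 10 genes. Those of C1qa and C1qb are shown because these neighbouring genes code for chains of the same complex. The C3 promoter is shown because C3 varied most among the 10 genes. Capitals mark matches on either strand to GGAAGT, the core bound by ETS factors such as the microglial regulator PU.1, and to TTGCNNAA, a form of the C/EBP motif. Both motifs were picked after the sequences were read, and no match of one overlapped a match of the other.
C1qa promoter, chr5:154419884-154420183, minus strand: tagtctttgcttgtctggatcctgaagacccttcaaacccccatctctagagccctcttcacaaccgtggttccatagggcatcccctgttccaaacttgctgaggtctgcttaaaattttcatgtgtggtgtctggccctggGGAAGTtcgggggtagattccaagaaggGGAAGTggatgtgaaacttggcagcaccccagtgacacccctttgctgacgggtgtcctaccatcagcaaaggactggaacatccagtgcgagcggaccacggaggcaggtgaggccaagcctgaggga
C1qb promoter, chr5:154407778-154408077, minus strand: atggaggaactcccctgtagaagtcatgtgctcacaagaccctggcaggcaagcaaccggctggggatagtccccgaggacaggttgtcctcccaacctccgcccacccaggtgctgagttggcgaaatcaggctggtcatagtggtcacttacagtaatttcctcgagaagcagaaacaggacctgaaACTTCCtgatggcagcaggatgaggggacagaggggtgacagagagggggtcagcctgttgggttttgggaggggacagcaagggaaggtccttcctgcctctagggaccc
C3 promoter, chr9:2201290-2201589, minus strand: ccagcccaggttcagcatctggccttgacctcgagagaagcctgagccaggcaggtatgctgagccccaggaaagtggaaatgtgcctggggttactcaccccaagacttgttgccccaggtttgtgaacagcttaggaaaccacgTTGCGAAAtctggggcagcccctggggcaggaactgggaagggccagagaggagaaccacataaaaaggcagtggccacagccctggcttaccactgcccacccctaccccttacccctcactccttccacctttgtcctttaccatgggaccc
GGAAGT was found in the promoters of C1qa (2 matches), C1qb and Cx3cr1 (1 match each), which is 3 of 6, against 22.58% of the 33469 rat promoters of this length. TTGCNNAA was found in those of C3 and Trem2, 2 of 6, against 10.6% of all promoters. In C1qa the matches began 107 and 79 bases before the start site, in C1qb 61 bases before it and in C3 104 bases before it. A match is a description of the letters and does not show that a factor was bound.

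Hippocampal libraries held 51463555, 20034298, 16728486 and 40409013 counts in VNS libraries 1 to 4, against 34649991, 37662194 and 39773553 in control libraries 1 to 3. Ribosomal RNA took 9.34, 31.6, 73.1 and 31.3% of the counts of VNS libraries 1 to 4, against 8.85, 7.11 and 19.3% in control libraries 1 to 3. The values of VNS library 3 for these genes therefore rest on the fewest reads, from 21 for Trem2 to 428 for Csf1r. At 21 counts, counting error alone is 21.8% of the value. Control libraries 1 and 2 went against the hippocampal label in markers of forebrain neurons. Over 11 forebrain excitatory neuron markers, none at 0 throughout, the summed level was 5527, 3571, 5073 and 4513 CPM in VNS libraries 1 to 4, against 729, 246 and 4224 CPM in control libraries 1 to 3. CPM is counts per 1e6 counts, on library sizes scaled by TMM (trimmed mean of M-values), a method that lines up the bulk of the genes between libraries. Over 10 markers of thalamus and brainstem the summed level was 29.3 to 168.9 CPM in the VNS libraries, against 1352, 599.7 and 63.9 CPM in control libraries 1 to 3. The fold change of each of the 10 genes is therefore given with all libraries and without control libraries 1 and 2, a fit that rests on control library 3 alone.

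None of the 10 microglia and complement genes differed between VNS and control hippocampus by edgeR's quasi-likelihood test after adjustment over 12728 records. The same held for all records tested, of which 0% were called at an adjusted p under 0.05. At an unadjusted p under 0.05, 1 of the 10 genes (C3) passed, against 12.1% of all records. DESeq2 called 0 of the 10, against 0.134% of all records, and had 1 of the 10 at an unadjusted p under 0.05, against 15% of all records. With limma-voom 0 of the 10 were called, against 0% of all records, and 0 of the 10 had an unadjusted p under 0.05, against 14.8%. The median log2 fold change of the 10, VNS over control, was -0.02, and that of all records tested was -0.01. Of the 10, 5 had a lower and 5 a higher fitted value, against 50.8% lower among all records. The samples are bulk tissue, so fewer microglia and less RNA per microglial cell cannot be told apart in any of these values.

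**Figure D1:**
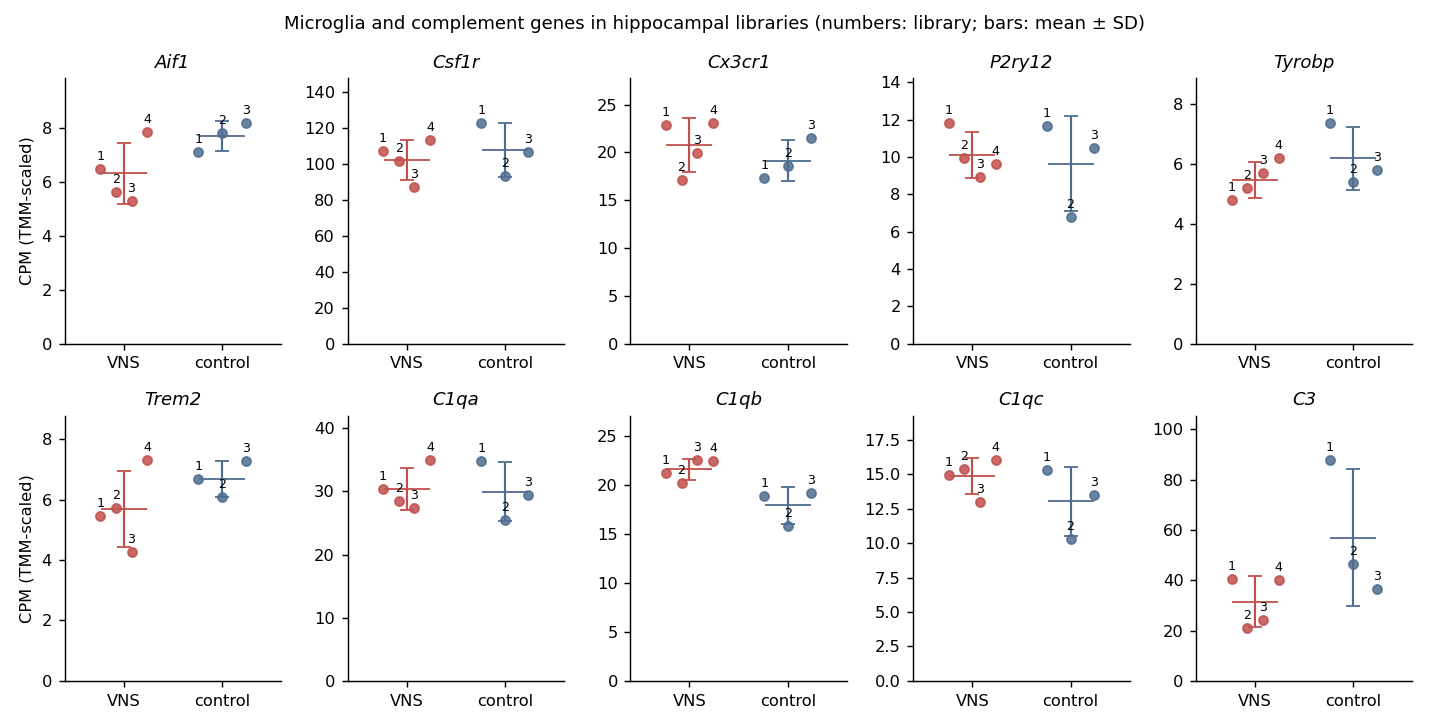
CPM of each of the 10 genes in the hippocampal libraries, VNS to the left of control in each panel. Points are libraries with their numbers, and bars give the mean and SD (n = 4 VNS and 3 control). C3 in control library 1 stands highest at 87.9 CPM, and C1qb is the only panel in which the groups do not overlap.

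The values of the receptor genes that define surveying microglia overlapped between the groups, and whether their levels were equal was not tested. Csf1r, the receptor kinase for CSF1 and IL-34, had 107, 102, 87.0 and 113 CPM in VNS libraries 1 to 4, against 123, 93.0 and 107 CPM in control libraries 1 to 3. The highest Csf1r value and the second lowest were both in control libraries, so the groups overlapped. Its log2 fold change was -0.07 (SE 0.15, 95% interval -0.42 to 0.27, adjusted p = 0.84), and -0.07 (SE 0.21) without control libraries 1 and 2. Csf1r is a record of 24 exons on chromosome 18, from 55662900 to 55689297.

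Cx3cr1 encodes the receptor for fractalkine, a chemokine displayed by neurons. It had 22.8, 17.1, 19.9 and 23.1 CPM in VNS libraries 1 to 4, against 17.4, 18.6 and 21.5 CPM in control libraries 1 to 3 (chromosome 8, 127941653 to 127955411). The lowest and the highest value were both in VNS libraries. The log2 fold change was 0.12 (SE 0.16, 95% interval -0.24 to 0.48, adjusted p = 0.74). It was -0.056 (SE 0.24) without control libraries 1 and 2.

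P2ry12, the ADP receptor that steers microglial processes and a marker of the resting state, had 11.8, 9.95, 8.94 and 9.64 CPM in VNS libraries 1 to 4. Control libraries 1 to 3 had 11.6, 6.76 and 10.5 CPM (chromosome 2, 168873856 to 168876803). Control library 2 was the lowest of the 7 and the other values overlapped. The log2 fold change was 0.08 (SE 0.22, 95% interval -0.42 to 0.57, adjusted p = 0.89), and -0.055 (SE 0.27) without control libraries 1 and 2.

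Aif1 encodes IBA1, the calcium- and actin-binding protein used to stain microglia. Its level was 6.49, 5.63, 5.29 and 7.85 CPM in VNS libraries 1 to 4, against 7.11, 7.81 and 8.20 CPM in control libraries 1 to 3. VNS libraries 1, 2 and 3 lay below every control library, and VNS library 4 lay among the controls. The log2 fold change was -0.27 (SE 0.19, 95% interval -0.71 to 0.16, adjusted p = 0.51) and -0.37 (SE 0.32) without control libraries 1 and 2. Aif1 lies on chromosome 20, from 7234609 to 7236508.

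Tyrobp and Trem2, the adaptor and its lipid-sensing receptor, had the lowest mean CPM of the 10 genes in both groups. Tyrobp had 4.80, 5.20, 5.69 and 6.22 CPM in VNS libraries 1 to 4, against 7.39, 5.40 and 5.80 CPM in control libraries 1 to 3 (chromosome 1, 90031123 to 90034973). Trem2 had 5.47, 5.73, 4.27 and 7.31 CPM in the VNS libraries, against 6.68, 6.09 and 7.29 CPM in the controls (chromosome 9, 13532920 to 13539372). For both genes the groups overlapped, and VNS library 4 was the highest VNS library. The log2 fold changes were -0.18 for Tyrobp (SE 0.20, 95% interval -0.64 to 0.27, adjusted p = 0.67) and -0.21 for Trem2 (SE 0.21, 95% interval -0.70 to 0.28, adjusted p = 0.64). With control library 3 as the only control they were -0.10 (SE 0.32) for Tyrobp and -0.34 (SE 0.35) for Trem2.

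C1qa, C1qb and C1qc encode the A, B and C chains from which C1q is built. C1qa had 30.4, 28.5, 27.4 and 34.98 CPM in VNS libraries 1 to 4, against 34.8, 25.5 and 29.5 CPM in control libraries 1 to 3. C1qb had 21.2, 20.2, 22.6 and 22.4 CPM in VNS libraries 1 to 4, against 18.9, 15.8 and 19.2 CPM in the controls. C1qc had 14.9, 15.4, 13.01 and 16.0 CPM in VNS libraries 1 to 4, against 15.3, 10.3 and 13.5 CPM in the controls. Control library 2 was the lowest of the 7 libraries for all 3 chains. The VNS and control values overlapped for C1qa and C1qc.

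For C1qb every VNS library lay above every control library, so 1 of the 10 genes had groups that did not overlap, against 9.28% of all records tested in either direction. In 0 of the 10 did all VNS libraries lie below all controls, against 4.61% of all records. Its log2 fold change of 0.27 (SE 0.13, 95% interval -0.04 to 0.57) did not pass (adjusted p = 0.41). The log2 fold changes of C1qa and C1qc were 0.02 (SE 0.15, 95% interval -0.33 to 0.37, adjusted p = 0.96) and 0.19 (SE 0.17, 95% interval -0.20 to 0.59, adjusted p = 0.60). Without control libraries 1 and 2 the 3 values were 0.04 (SE 0.21) for C1qa, 0.16 (SE 0.21) for C1qb and 0.14 (SE 0.24) for C1qc.

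C3, the central complement protein, had the largest difference among the 10 genes. It had 40.4, 21.2, 24.4 and 40.0 CPM in VNS libraries 1 to 4, against 87.9, 46.4 and 36.5 CPM in control libraries 1 to 3. Control libraries 1 and 2 were the highest of the 7, and control library 3 lay below VNS libraries 1 and 4. C3 averaged 31.5 ± 10.2 CPM in VNS hippocampus and 56.9 ± 27.3 CPM in controls (SD, n = 4 and 3). The log2 fold change was -0.85 (SE 0.35, 95% interval -1.64 to -0.05), which did not pass the adjustment (adjusted p = 0.40). It was -0.39 (SE 0.29) without control library 1, -0.21 (SE 0.35) without control libraries 1 and 2, and -1.08 (SE 0.33, adjusted p = 0.076) without control library 3. Over the 17 other settings the adjusted p lay between 0.076 and 0.99995. The C3 record has 41 exons on chromosome 9, from 8728465 to 8754412.

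**Figure D2:**
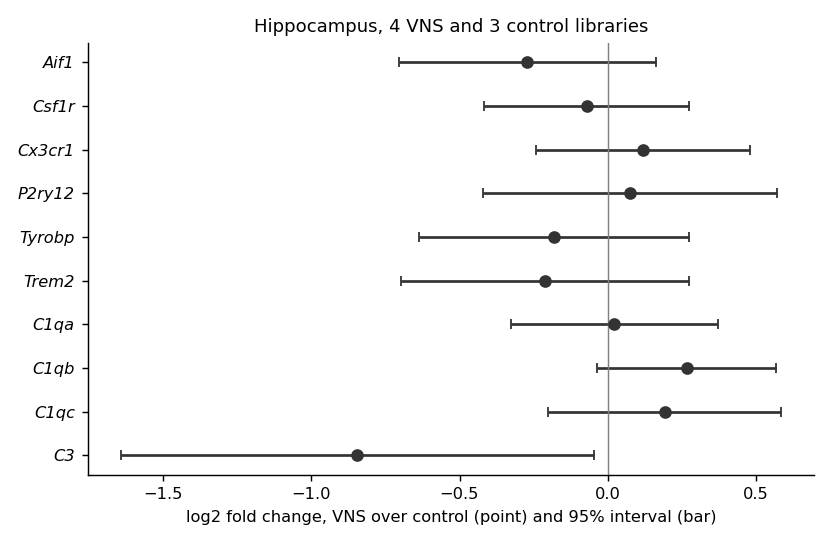
Log2 fold change of each gene, VNS over control, in hippocampus, with its 95% interval from the quasi-likelihood fit (n = 4 VNS and 3 control libraries). The interval of C3, from -1.64 to -0.05, is the only one that leaves out 0 before adjustment over all records, and it is the widest.

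The 9 genes other than C3 were steady from library to library. Their highest CPM was 1.35 to 1.75 times the lowest over the 7 libraries, and 4.15 times for C3. The SD of log2 CPM over the 7 libraries ran from 0.17 for Csf1r and C1qa to 0.27 for P2ry12 and Trem2, and was 0.67 for C3. The median SD over all 12728 records was 0.34. A larger SD than that of Csf1r was seen in 85.1% of records, than that of P2ry12 in 61.1% and than that of C3 in 21.0%. Records were not matched by level for this comparison. The mean log2 level of the 9 genes, relative to their mean over the 7 libraries, was 0.03, -0.07, -0.14 and 0.17 in VNS libraries 1 to 4. In control libraries 1 to 3 it was 0.13, -0.19 and 0.08. Control library 2, the library with the lowest summed level of forebrain markers, was the lowest of the 7, and control library 1 was the highest but for VNS library 4. The summed CPM of forebrain markers spanned a range of 22.5 times over the same libraries, whereas that of the 10 genes spanned 1.51 times.

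Levels of different genes were compared per length, as RPKM (CPM per kilobase of record), over the 7 hippocampal libraries. C1qa was the highest at 30.1 ± 3.59 RPKM and Csf1r followed at 28.2 ± 3.25 RPKM (SD, n = 7 libraries). C1qa exceeded Csf1r in 7 of 7 libraries, by 0.02 to 0.22 on the log2 scale. C1qb was next at 18.6 ± 2.20 RPKM, below Csf1r in 7 of 7 libraries, and Cx3cr1 at 15.1 ± 1.88 RPKM, below C1qb in 7 of 7. Cx3cr1 and C1qc (13.7 ± 1.91 RPKM) could not be ordered, as Cx3cr1 was the higher in 5 of 7 libraries. C1qc was above Tyrobp (11.02 ± 1.602 RPKM) in 6 of 7. Tyrobp, Aif1 (10.5 ± 1.74 RPKM), C3 (8.36 ± 4.34 RPKM) and P2ry12 (7.91 ± 1.39 RPKM) overlapped, with Tyrobp above Aif1 in 3 of 7 libraries and C3 above P2ry12 in 3 of 7. Trem2 was the lowest at 5.29 ± 0.94 RPKM and lay below P2ry12 in 7 of 7 libraries.

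Within a library, the ratio of 2 genes does not depend on the library size. C1qa over C1qb in RPKM was 1.54, 1.51, 1.31 and 1.68 in VNS libraries 1 to 4, against 1.98, 1.73 and 1.65 in control libraries 1 to 3. C1qa over C1qc was 2.09, 1.90, 2.17 and 2.24 in the VNS libraries, against 2.34, 2.53 and 2.25 in the controls. In this pair all VNS libraries lay below all controls, with VNS library 4 and control library 3 almost equal. C3 over C1qa was 0.262, 0.147, 0.176 and 0.226 in the VNS libraries, against 0.499, 0.360 and 0.245 in the controls. For 7 ratios, chosen after the counts were seen, the groups were compared by a two-sided exact permutation test adjusted over the 7. With 4 VNS and 3 control libraries, no p-value of this test can fall below the threshold used for the genes. The test could therefore not decide whether a ratio differed between the groups, and its p-values are given as descriptions. The smallest exact p was 0.057 for C1qa over C1qc (adjusted p = 0.27), which is the lowest value that this test can give. The exact p was 0.11 for C1qa over C1qb and 0.11 for C3 over C1qa. It was 0.74 for C1qb over C1qc and 0.74 for Tyrobp over Trem2, whose mean ratios were 2.19 ± 0.50 in VNS libraries and 2.05 ± 0.35 in controls (SD, n = 4 and 3). The exact p was 0.23 for Csf1r over Aif1 and 0.97 for Cx3cr1 over P2ry12.

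**Figure D3:**
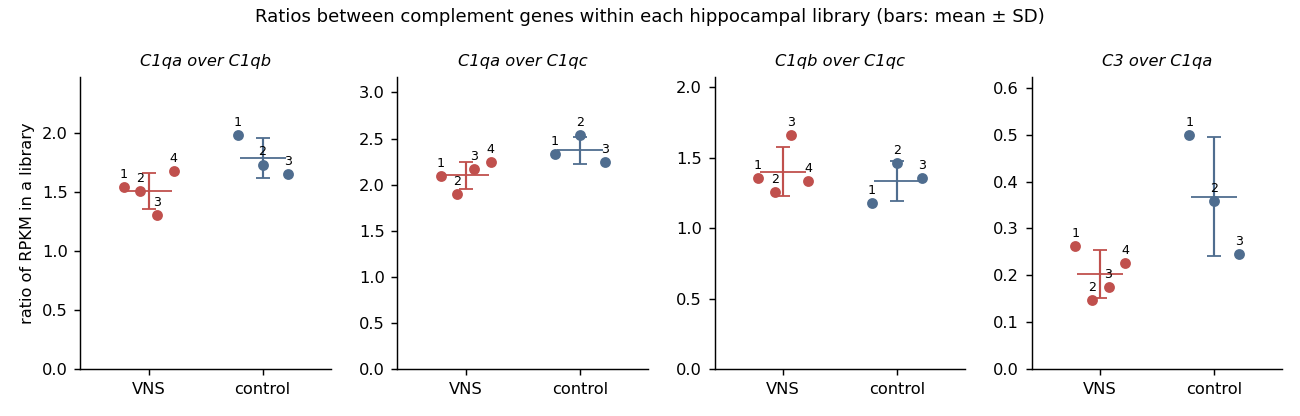
Ratios of RPKM between complement genes within each hippocampal library, VNS left and control right. Points are numbered libraries, and bars give the mean and SD (n = 4 and 3). C1qb over C1qc lies between 1.18 and 1.66 in all 7 libraries, and C3 over C1qa reaches 0.499 in control library 1.

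Over the 7 hippocampal libraries, the pairwise Pearson r of log2 CPM had a median of 0.32 among the 36 pairs without C3 (range -0.48 to 0.89). Among the 9 pairs with C3 the median r was 0.51, with values from -0.42 with C1qb to 0.67 with Csf1r. The points share library depth and tissue composition, so these r are descriptions. Among 11995 other named records tested, those whose log2 CPM most resembled the mean of the 10 genes were Has3 (r = 0.98), Themis2 (0.98), the Mir22 precursor record (0.96), Grin2c (0.96), RT1-Da (0.96) and Zdhhc18 (0.95). Has3 makes hyaluronan, Themis2 is a signalling protein of myeloid and B cells, Grin2c is an NMDA receptor subunit and RT1-Da is a class II antigen presentation gene. These are the highest r of 11995 records over 7 points, so no link to microglia was read from them. Has3 averaged only 0.78 CPM in VNS and 0.92 CPM in control libraries, and Themis2 0.64 and 0.79 CPM. The mean of the 10 genes includes C3, which varied most.

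Other microglia genes were likewise not called. Of 35 listed, 31 had a record and 28 records were tested, with 0 called, 15 lower and a median log2 fold change of -0.04. Ctss, a lysosomal protease and the highest of the list at 129.1 RPKM, stood at -0.15 (SE 0.13). The transcription factor gene Runx1, with the smallest p, stood at -1.47 (SE 0.41) and did not pass (adjusted p = 0.40). Runx1 had 1.53, 1.55, 2.03 and 1.24 CPM in VNS libraries 1 to 4, against 4.32, 6.49 and 2.03 CPM in control libraries 1 to 3. Only control libraries 1 and 2 were apart from the rest, and without control library 3 Runx1 was called, as 1 of 28 in its list, against 10.6% of all records in that fit. Ptprc, a pan-leukocyte gene with 5 records, was at 0 counts in each. Records of the marker genes Mbp and Snap25 were also at 0 throughout. A 0 in a gene with several records was therefore not read as absence of its transcript.

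Ligands that act on microglia were tested in 6 of 6 cases, with 0 called and a median of 0.21. Fractalkine, encoded by Cx3cl1 and the highest of these genes at 115.8 RPKM, stood at 0.19 (SE 0.25). Its lowest value was 200.9 CPM in control library 2, and its log2 fold change turned negative, to no lower than -0.14, without that library and without control libraries 1 and 2. Il34, which encodes the neuronal CSF1R ligand, had 31.1, 24.2, 21.5 and 22.2 CPM in VNS libraries 1 to 4, against 8.55, 19.04 and 20.2 CPM in control libraries 1 to 3. Tgfb1, a cytokine that maintains microglial identity, had 6.18, 5.83, 9.76 and 6.42 CPM in the VNS libraries, against 5.58, 4.203 and 3.60 CPM in the controls. All VNS libraries lay above all controls for both genes, so 2 of 6 ligands did not overlap, against 9.28% of all records in either direction. Both were named because they had the smallest p of their list, and neither passed (log2 fold change 0.64, SE 0.30, and 0.63, SE 0.26, adjusted p = 0.40 for each). Of 10 tested genes of Trem2 and Tyrobp signalling, 0 were called and 7 were lower (median -0.29). Adam10, the protease that sheds the TREM2 ectodomain, had 83.6, 90.0, 75.6 and 85.2 CPM in the VNS libraries, against 106.5, 100.3 and 99.3 CPM in the controls. Syk, the kinase recruited by TYROBP, had 6.87, 6.80, 6.50 and 9.22 CPM in the VNS libraries, against 6.29, 3.57 and 5.57 CPM in the controls. The groups did not overlap for either, which is 2 of 10 against the same 9.28% of all records. Adam10 and Syk too had the smallest p of their list, and neither passed (log2 fold change -0.29, SE 0.12, and 0.52, SE 0.25, adjusted p = 0.40 and 0.41).

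Genes that mark activated microglia had 15 tested records, 0 called and 9 lower, with a median of -0.35, and 0.16 over 16 records without control libraries 1 and 2. Fth1, an iron storage gene and the highest by RPKM, stood at 0.16 (SE 0.21). Lpl, a lipase gene also expressed by neurons, stood at 1.58 (SE 0.79) and the lysosomal protease gene Ctsd at -0.35 (SE 0.18, adjusted p = 0.41 for both). Lpl had 34.8, 38.5, 50.6 and 29.9 CPM in the VNS libraries, against 3.93, 2.75 and 31.6 CPM in control libraries 1 to 3. Control libraries 1 and 2 were apart from the other 5, and over 16 alternatives its log2 fold change ran from 0.26 to 3.51. Lpl was called only without control library 3, as 1 of 15 in its list, against 10.6% of all records in that fit. All 4 Igf1 records were at 0 counts, and no library reached more than 0.163 CPM in any of the 5 Apoe records or 0.146 CPM in either Axl record. As these genes have several records each, the values were not read as the level of the gene.

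The rest of the complement system gave no called gene either. Of 11 tested cascade genes, 4 were lower (median 0.12). C1r, the protease of the C1 complex and the highest of them, stood at 0.48 (SE 0.25), and Masp1, a lectin pathway protease, at 0.59 (SE 0.34). Without control libraries 1 and 2, 0 of the 11 were lower (median 0.38), and 0 were called. Of 10 tested regulators, 4 were lower (median 0.09). Among these, Clu, which encodes the abundant astrocyte protein clusterin, stood at 0.11 (SE 0.17), Csmd1, a neuronal inhibitor, at 0.52 (SE 0.24), and Cd59b at -0.45 (SE 0.22). Of 9 tested receptors, 7 were lower (median -0.13). Calr, a chaperone that also binds C1q, stood at 0.31 (SE 0.16), and the astrocytic engulfment receptor gene Megf10 at -0.54 (SE 0.30). Of 15 tested relatives with a C1q domain, which are mostly secreted neuronal or metabolic proteins, 7 were lower (median 0.08). The synaptic organiser gene C1ql3 stood at 1.30 (SE 0.90), Cbln2 at -1.27 (SE 0.61) and C1qtnf12 at -1.86 (SE 0.78, at most 2.61 CPM). The adjusted p of these named genes ran from 0.40 to 0.79. Without control libraries 1 and 2, Csmd1 stood at -0.025, Cd59b at 0.071, C1ql3 at -0.12 and C1qtnf12 at 0.62. Without control library 3, where 10.6% of all records were called, 0 of 11 cascade genes, 1 of 11 regulators (Csmd1), 1 of 10 receptors and 2 of 15 relatives (C1ql3 and C1qtnf12) were called.

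Markers of other cells were set beside the 10 genes, since blood, border macrophages and vessels can enter a dissected sample. Border macrophage markers (9 tested of 13 listed, none of the 10 records at 0 throughout) summed to 9.76 to 19.97 CPM in VNS libraries. They summed to 43.9, 14.7 and 12.3 CPM in control libraries 1 to 3. In this list RT1-Da had 3.23, 0.583, 0.407 and 3.57 CPM in the VNS libraries, against 9.37, 1.05 and 1.95 CPM in the controls. F13a1 reached 8.80 CPM in control library 1, with 0.994 to 2.91 CPM elsewhere, and Clec10a stood at a log2 fold change of 0.60 (SE 0.44). Blood cell markers (7 tested of 19 listed, none of the 15 records at 0 throughout) summed to 98.2 to 224.0 CPM in VNS libraries, against 379.2, 127.3 and 158.1 CPM in control libraries 1 to 3. The haemoglobin gene Hbb reached 127.7 CPM in control library 1, with 20.5 to 50.1 CPM elsewhere. Hba-a1 stood at -0.39 (SE 0.49) and Alas2 at -0.52 (SE 0.52). Without control library 1, the log2 fold changes of RT1-Da, F13a1, Hba-a1 and Alas2 turned positive. Control library 1, the highest in C3, was the highest in both sums, and the part of this in the C3 value was not tested.

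Vascular and pericyte markers had 12 tested records, with 8 lower and a median log2 fold change of -0.22. They summed to 228.3 to 389.1 CPM in VNS libraries, against 313.1 to 419.3 CPM in controls. The highest sum was in control library 1. Flt1 (1 of 2 records) stood at -0.47 (SE 0.15), Slco1a4 at -0.42 (SE 0.19) and Rgs5 at 0.04 (SE 0.21). Markers of astrocytes, which can also make complement, summed to 3471 to 3987 CPM in VNS libraries, against 3583 to 3955 CPM in controls. Of 10 tested records 6 were lower (median -0.23), with Aldoc at -0.63 (SE 0.24), 1 of 3 Slc1a2 records at 0.89 (SE 0.38) and S100b at -0.07 (SE 0.20). Over 16 alternatives Rgs5 kept its direction in 13 and S100b in 15. The other Slc1a2 records were at 0 throughout, and the tested one reached at most 21.5 CPM. Its value was therefore not read as the level of the gene. Aqp4 and Slc1a3 were at 0 counts in every record. Both have several records, so the zeros were not read as absence, and the astrocyte sums hold nothing from these genes.

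Oligodendrocyte markers were lower in 14 of 14 tested records (median -0.71) and summed to 2360 to 5622 CPM in VNS libraries, against 8634, 7063 and 4865 CPM in control libraries 1 to 3. Ugt8, an enzyme gene of myelin lipid synthesis, stood at -0.97 (SE 0.29), while 5 of the 6 Mbp records were at 0 throughout. The order of the controls for myelin was that for C3, with control library 1 the highest and control library 3 the lowest. In the VNS libraries the orders differed. The myelin sums were 2885, 4097, 2360 and 5622 CPM in VNS libraries 1 to 4, where C3 had 40.4, 21.2, 24.4 and 40.0 CPM. The part of tissue composition in the C3 value was not tested. Pan-neuronal markers were lower in 5 of 10 and higher in 5 (median -0.02). Those named by smallest p or highest RPKM were all among the higher, with Rbfox3 at 1.07 (SE 0.36), Syt1 at 0.60 (SE 0.25) and Map2 at 0.63 (SE 0.32). Forebrain excitatory markers had a median of 1.46 over 11 records, with Nrgn at 1.83 (SE 0.86), Emx2 at 1.46 (SE 0.70) and Camk2a at 1.32 (SE 0.79). Thalamus and brainstem markers had a median of -2.44 over 10 records, with Slc17a6 at -2.86 (SE 0.87), Glra1 at -3.81 (SE 1.254) and Prkcd at -4.12 (SE 1.54). None of these passed (adjusted p = 0.40 to 0.94 for the named markers of all other cells and regions). Without control library 3, where 10.6% of all records were called, 9 of 11 forebrain and 6 of 10 thalamus and brainstem markers were called. In that fit 2 of 10 neuron, 2 of 14 oligodendrocyte and 2 of 10 astrocyte markers were called, and 0 of the vascular, blood cell and border macrophage markers. The small counts for neurons, oligodendrocytes and astrocytes were not read as results about those cells. Prkcd turned positive without control library 1. Without control libraries 1 and 2 the forebrain median was 0.22, the thalamus and brainstem median 0.68 (Glra1 2.67), the border macrophage median 0.66 over 10 records, the oligodendrocyte median -0.28 and the median of the 10 microglia and complement genes -0.06.

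**Figure D4:**
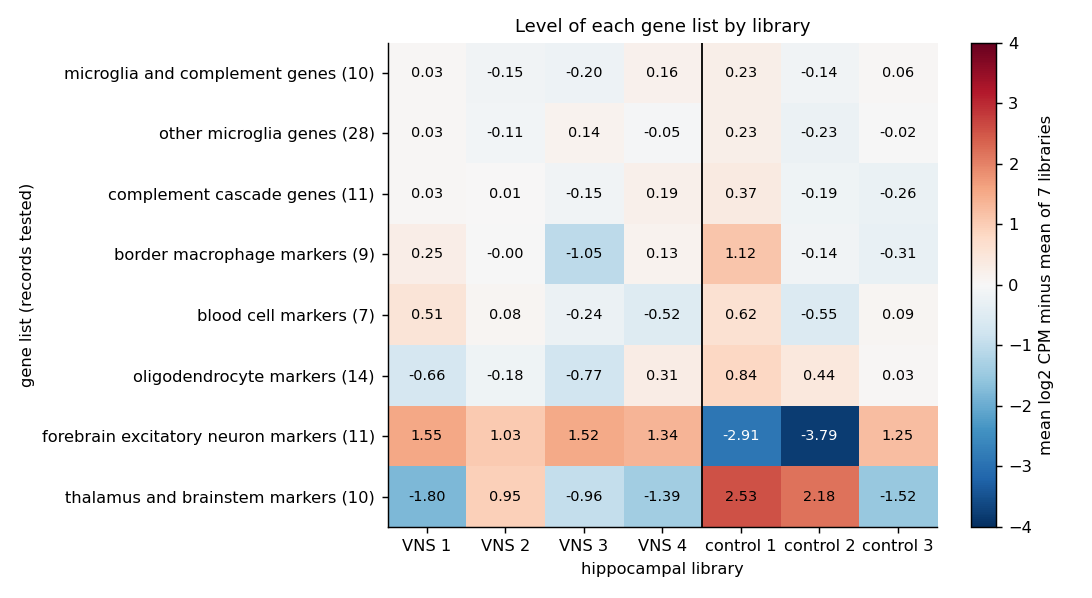
Mean log2 CPM of each gene list in each hippocampal library, relative to the mean of the 7 libraries, with the number of records tested in brackets and VNS libraries to the left of the line. The microglia and complement genes lie between -0.20 and 0.23 in all libraries, while forebrain markers are at -2.91 and -3.79 in control libraries 1 and 2.

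In cortex the 10 genes were too sparse to compare. They held 41, 15, 11 and 8 counts in total in VNS libraries 1 to 4, against 23, 25, 21 and 16 in control libraries 1 to 4, out of 329130 to 435296 counts per library. None passed the filter on low counts, so 0 of the 10 were among the 3884 records tested, of which 0.0257% were called and 2.39% had an unadjusted p under 0.05. In VNS library 1, C1qa and C3 had 14 counts each, and no other cortex library had more than 7 counts of C1qa or 2 of C3. C1qb had 2, 0, 0 and 0 counts in the VNS libraries, against 9, 2, 4 and 2 in the controls. Csf1r, the only gene of the 10 with counts in all 8 libraries, had 2 to 5 counts in the VNS libraries and 4 to 9 in the controls. Out of 1e6 counts, the 10 genes held 53.6 in the pooled cortex libraries and 318.8 in the pooled hippocampal libraries. The cortex was counted with strand option 1 and the hippocampus with none. Records overlapping a record on the opposite strand held 35.5% of cortex counts and 9.58% of hippocampal counts (3.28% outside ribosomal and 7SL RNA). None of the 10 genes is such a record. A cortex count was therefore not read as the level of its gene, and the difference between tissues was not tested.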

How the data were processed

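Counts per RefSeq transcript record were deposited by the authors and made with featureCounts 1.4.6-p2 on an rn5 annotation, per the file headers (strand option 1 in cortex, none in hippocampus). Per the submitters' processing notes, FastQC 0.10.1, Trimmomatic, Bowtie2, SAMtools 0.1.19, Subread and edgeR were used. Bowtie2 was run with settings not given in the sources used here. Other deposited values (record length, in bases) served for RPKM. Symbols came from RefSeq (GRCr8), for 17339 of 18278 records, and no coordinate was taken from it except those of the promoters. No column was left unmapped, and 1 cortex column, whose name differs from its description by a final letter, was assigned to that sample.

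Counts were tested in R 4.3.3 with edgeR 4.0.16 within each tissue (filterByExpr with a minimum count of 10 and total of 15, TMM, glmQLFit and glmQLFTest, two-sided, Benjamini-Hochberg over all records, threshold 0.05). The SE is the log2 fold change divided by the root of F. Log2 CPM used a prior count of 2. Alternatives were DESeq2 1.42.0, limma-voom (limma 3.58.1), other scalings, filters and record sets, and leaving out libraries. Members and the 16 gene lists set beside them were chosen with earlier results of these data known. From each list the text names the 2 tested members with the smallest p and the highest by RPKM, besides single values named after they were seen (zero-count records, region markers). Some genes that this rule names are not reported here. Intervals and counting errors cover counting or library spread only, and 3.28% of hippocampal counts outside ribosomal and 7SL RNA fell in records overlapping the other strand.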

Additional observations from a re-analysis of the deposited data

Results flagged for a closer look

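Among 55 values checked for a library apart from the other 3 VNS hippocampal libraries (Dixon's test at its 95% critical value), 5 met the test, where chance alone gives about 1 in 20. None was 1 of the 10 microglia and complement genes. VNS library 3, which had the fewest counts, was highest in Tgfb1 (9.76 CPM, against 5.83 to 6.42 CPM in the other 3) and in Emx2 (39.8 CPM, against 17.7 to 20.4 CPM). VNS library 4 was highest in Syk (9.22 CPM, against 6.50 to 6.87 CPM). VNS library 2 was highest in the brainstem and thalamus markers Glra1 (3.06 CPM, against 0.644 to 0.813 CPM) and Prkcd (41.2 CPM, against 6.19 to 7.53 CPM).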

How the results depend on the processing

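Over 17 alternatives in hippocampus, 0 of the 10 genes were called, and their median log2 fold change stayed between -0.15 (without control library 2) and 0.04 (without control library 1). Of 170 gene values, 162 kept their direction, and 6 genes kept it in every setting. The exceptions were near 0, and the cause was not tested. C1qa was -0.0058 with upper-quartile scaling and -0.081 to 0.14 without single libraries. Without control libraries 1 and 2, Cx3cr1 was -0.056 and P2ry12 -0.055. Without single libraries, P2ry12 ran from -0.13 to 0.23 and Csf1r from -0.17 to 0.035. The count of called records over the whole hippocampus was 17 with DESeq2 and 0 to 1377 without single libraries, with 1377 reached without control library 3, and 0 of the 10 genes were among them. In cortex, 1 record was called, against 5 with no filter, 6 with the 1 CPM filter, 0 with limma-voom, 2 without records overlapping the opposite strand and 0 to 4 without single libraries. None of the 10 genes was called there, also where no filter let all 10 be tested. Fits without control libraries 1 and 2 hold 1 control library, whose spread is taken to be that of the VNS libraries. No paired analysis was possible because the labels give the groups no shared replicate numbers. Depth limits VNS library 3, and low counts together with the strand option used in counting limit all cortex values.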
